A study of Caenorhabditis elegans with 2 samples.

Results

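The splicing factor genes of Caenorhabditis elegans were examined as possible sites of binding by PHA-4, the worm's FoxA (forkhead) transcription factor, which specifies the cells of the pharynx. They were taken as the protein-coding genes whose symbol starts with 1 of 9 prefixes (snr-, lsm-, rsp-, sftb-, sfa-, uaf-, mog-, prp- or rnp-), a rule on symbols alone. It gave 56 of 19973 nuclear protein-coding genes. They comprised 7 Sm core genes (snr-), 7 LSm genes (lsm-), 8 SR protein genes (rsp-), 6 genes of the branch site and the 3′ splice site (sftb-, sfa- and uaf-), 6 mog- genes, 13 prp- genes and 9 rnp- genes. The symbol rule is wider than splicing at its edges. Of the genes it takes in, lsm-1 belongs to the cytoplasmic LSm ring of mRNA decay, rnp-4 encodes the exon junction protein Y14 and rnp-8 encodes a partner of the poly(A) polymerase GLD-2.

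The binding data were chromatin immunoprecipitation followed by sequencing (ChIP-seq) of whole worms collected as L4 larvae aged 48 h. All worms were of strain RW12220, in which CRISPR had inserted TY1, EGFP and 3xFLAG tags at the endogenous pha-4 gene (allele st12220, chromosome V), and they had been synchronised by bleaching and by starvation at the L1 stage. Sonication gave chromatin fragments of 200 to 800 bp. The sample descriptions state that an anti-GFP antibody was used for precipitation, whereas the antibody field names pha-4. There was 1 group with 2 biological replicates, of the same strain, so no condition could be compared with another, and a peak cannot be given to any one of the worm's tissues.

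Before translation, introns are cut from pre-mRNA by the spliceosome, which is built from small nuclear ribonucleoproteins (snRNPs). Each snRNP carries a small nuclear RNA wrapped by a ring of Sm or LSm proteins, and SR proteins bind exons and help the snRNPs find the splice sites. DEAH-box helicases and Prp proteins then remodel the assembled machine through its catalytic steps, and in the worm spliced-leader RNAs, which also carry Sm rings, are joined to the start of many mRNAs by the same machinery.

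A promoter window reached from 1000 bp upstream to 500 bp downstream of the annotated gene start, and a gene was counted when the summit of a peak lay in its window. Positions are given as the distance from the gene start, negative upstream. The main peak list was the less strict of the thresholded lists made by the authors from both replicates, with 2920 nuclear peaks of median width 340 bp at an irreproducible discovery rate (IDR) of at most 0.01, which is a −log10 IDR of at least 2. Its signal is the peak caller's own value on a scale set per list, so signals are compared within a list only. The summits of snr-2 and snr-6 passed the IDR threshold with no candidate of replicate 2 in their windows. The −log10 IDR is therefore not read here as agreement between the 2 replicates. The stricter list from both replicates held 1555 nuclear peaks, that of replicate 1 held 2114 and that of replicate 2 held 1643. Ranked lists of candidates below as well as above the threshold held 81354 nuclear summits for both replicates together, 84912 for replicate 1 and 47072 for replicate 2. Read depth is unknown, and no control reads were analysed here.

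The sequences under 6 of the strongest summits at these genes are shown because they are the DNA on which the signals below rest. Each reaches 50 bp to each side of a summit of the main list, from the RefSeq copy of WBcel235 (ce11), read in the direction of the gene's transcription. Capitals mark the 6 bases TGCGTC, searched on both strands. None of the windows overlaps an annotated coding exon or UTR.
mog-4 (chrII:14561817-14561917, minus strand): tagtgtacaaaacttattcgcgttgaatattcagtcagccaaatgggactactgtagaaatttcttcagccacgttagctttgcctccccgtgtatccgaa
snr-4 (chrV:11980073-11980173, minus strand): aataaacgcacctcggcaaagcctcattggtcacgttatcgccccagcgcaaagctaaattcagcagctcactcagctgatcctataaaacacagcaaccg
rsp-6 (chrIV:7791336-7791436, minus strand): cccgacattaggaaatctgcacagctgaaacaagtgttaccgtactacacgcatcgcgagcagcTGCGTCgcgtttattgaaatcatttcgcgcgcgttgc
snr-1 (chrIV:17087597-17087697, plus strand): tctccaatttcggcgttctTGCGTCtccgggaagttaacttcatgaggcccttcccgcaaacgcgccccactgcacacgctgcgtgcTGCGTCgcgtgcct
rsp-1 and rsp-2, read towards rsp-1 (chrII:11453172-11453272, plus strand): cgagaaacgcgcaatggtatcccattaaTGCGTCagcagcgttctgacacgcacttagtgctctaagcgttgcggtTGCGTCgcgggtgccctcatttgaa
prp-40 (chrIII:9521836-9521936, plus strand): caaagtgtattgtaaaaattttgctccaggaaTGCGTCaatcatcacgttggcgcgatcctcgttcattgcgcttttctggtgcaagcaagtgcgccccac
The windows of rsp-6, snr-1, the rsp-1 and rsp-2 pair and prp-40 hold the 6 bases at least once, and those of mog-4 and snr-4 do not. None of the 6 windows holds the published PHA-4 consensus (T, A or G, T, T, G or T, A or G, C or T) on either strand.

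In the main list, 13 of the 56 splicing factor genes (23.2%, 95% Wilson interval 14.1 to 35.8% over genes) had a promoter summit, against 1429 of all 19973 genes (7.15%). The 13 genes used 12 distinct summits, because rsp-1 and rsp-2 share 1, so the genes are not independent and the interval covers counting error only. In the stricter list the count was 7 of 56 (12.5%, 6.19 to 23.6%), against 4.15% of all genes. The list of replicate 1 alone gave 13 of 56 (23.2%), against 5.53% of all genes. The list of replicate 2 alone gave 4 of 56 (7.14%, 2.81 to 17%), against 3.85%, and here the interval of the splicing factor genes includes the share of all genes. The shares were not tested against each other.

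**Figure D1:**
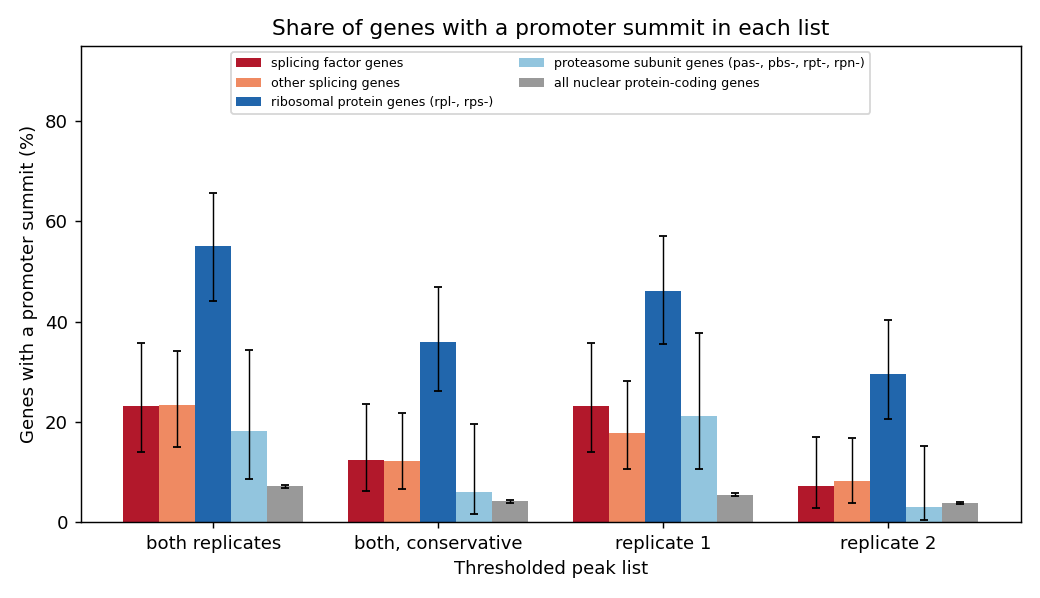
Percentage of genes with a promoter summit (vertical axis) in each of 4 thresholded peak lists (horizontal axis), for splicing factor genes, other splicing genes, ribosomal protein genes, proteasome subunit genes and all nuclear protein-coding genes. Bars are shares of genes and whiskers are 95% Wilson intervals over genes; the splicing factor genes stood at 23.2% in the list from both replicates and at 7.14% in the list of replicate 2, against 7.15% and 3.85% of all genes.

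In the ranked list of both replicates, which holds summits above as well as below the threshold, 42 of the 56 splicing factor genes (75%) had a candidate summit, against 52.0% of all genes. The 42 include the 13 genes with a main summit, and the other 29 had a candidate alone. In the ranked list of replicate 1 the count was 43 (76.8%), against 57.2% of all genes. In that of replicate 2 it was 44 (78.6%), against 44.5% of all genes. The strongest candidate had a median signal of 54.6 over the 42 splicing factor genes, against 38.0 over the 10383 genes with a candidate. Among genes with a summit in the main list the order was the other way, with a median signal of 90.3 (63.7 to 535) for the 13 splicing factor genes, against 112 (9.60 to 1029) for the 1429 genes. Most of the splicing factor summits were thus of middling or low strength within the main list, and 1 stood far above the rest.

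That summit belonged to mog-4, which encodes a DEAH-box helicase related to the yeast spliceosome helicase Prp2 and is named for the masculinised germ line of its mutants. Its signal was 535 in the main list, 356 in the ranked list of replicate 1 and 178 in that of replicate 2. It lay intergenic at chrII:14561867, at −268 bp, was stronger than 99.2% of the main peaks (rank 23) and had a −log10 IDR of 5.00. The summit fell in no other gene's window, and its peak was in the stricter list and in both replicate lists. Of the other mog- genes, none had a main summit in its promoter window. The candidates of mog-1, a Prp16-like helicase, and mog-2, which encodes a U2 snRNP protein, had signals of 49.9 and 27.2. That of mog-3 had 37.9, and mog-5 and mog-7 had a candidate in the ranked list of replicate 2 alone. A main summit of 73.8 lay in a coding exon of mog-3, 1903 bp downstream of its start and beyond the window.

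The Sm core had a main summit at 4 of 7 genes, against 7.15% of all genes. All 7 had a candidate in the ranked list of both replicates, against 52.0% of all genes. The Sm proteins form the ring that the spliceosomal snRNAs other than U6 carry. At snr-4 (SmD2) the signal was 186 in the main list, 114 in the ranked list of replicate 1 and 66.4 in that of replicate 2. Its peak, at −400 bp, was 91 bp wide, was in both replicate lists and the stricter list, and had a −log10 IDR of 4.12. The summit (chrV:11980123) lay just inside the start of T11F9.15, an annotated snRNA gene on the plus strand at chrV:11980118-11980261. The peak (chrV:11980041-11980131) overlaps only the first bases of that gene, and most of it lies upstream of both snr-4 and the snRNA gene. The share of the snRNA gene in the snr-4 signal was not tested. With summits within 250 bp of small noncoding RNA genes left out, 12 of 56 splicing factor genes (21.4%) kept a summit, against 6.44% of all genes.

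At snr-1 (SmD3) the signal was 120 in the main list, 75.3 in the ranked list of replicate 1 and 32.5 in that of replicate 2. The summit, at −402 bp (chrIV:17087647, −log10 IDR 3.09), lies between snr-1 and snx-13, whose starts face away from each other 611 bp apart, and it counts for both. It was in the stricter list and in the list of replicate 1. At snr-6 (SmE) the signal was 71.9 at −261 bp (−log10 IDR 2.07), with 60 in the ranked list of replicate 1 and no candidate in replicate 2. Its peak overlapped neither replicate list. Replicate 1 had another thresholded summit of 55.1 at 485 bp downstream of the start, past the end of this short gene. Through that summit snr-6 is counted in the list of replicate 1. At snr-2 (SmB) the signal was 63.7 at −345 bp (−log10 IDR 2.14), with 62.5 in replicate 1 and no candidate in replicate 2. These last 2 are the weakest of the 4 Sm summits, were seen in replicate 1 alone, and are shared with the neighbours Y49E10.16 and W08E3.4. The candidates of snr-3 (SmD1), snr-7 (SmG) and snr-5 (SmF) had signals of 64.6, 29.9 and 25.7 and did not reach the threshold.

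Of the SR protein genes, 4 of 8 had a main summit, against 7.15% of all genes. At rsp-6 the signal was 122 in the main list, 62.5 in the ranked list of replicate 1 and 54.0 in that of replicate 2, at −157 bp (chrIV:7791386, −log10 IDR 3.25). It was in the stricter list and in both replicate lists, and in no other gene's window. A second main summit of 149 lay 1535 bp downstream of the rsp-6 start, past the gene's end and in the window of imp-3. The neighbours rsp-1 and rsp-2, whose starts face away from each other 407 bp apart, shared 1 summit (chrII:11453222) at −140 bp and −267 bp. Its signal was 99.3 in the main list, 77.3 in the ranked list of replicate 1 and 38.8 in that of replicate 2, with a −log10 IDR of 3.12. It was in the stricter list and in the list of replicate 1. At rsp-7 the signal was 75.8 at −304 bp (−log10 IDR 2.18), inside the annotated noncoding gene M28.13, and the peak overlapped neither replicate list. Within 100 bp of that summit the ranked candidates had signals of 59.5 in replicate 1 and 18.8 in replicate 2. The same summit lay in the window of snu-13, a protein of the U4 snRNP, whose start is 580 bp from that of rsp-7 on the other strand.

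The remaining SR genes had no main summit in their windows. The candidates had signals of 56.8 at rsp-8 (a Tra2-like protein), 64.6 at rsp-5 and 53.4 at rsp-3 (the worm SF2/ASF). Beyond the windows, main summits of 82.8 and 83.4 lay in the 3′ UTRs of rsp-8 and rsp-3, and one of 120 lay past the end of rsp-5. At rsp-4 (the worm SC35) only the ranked list of replicate 1 held a candidate, with 48.6. The candidate of rsp-5 was the same summit as that of snr-3. Those genes stand 404 bp apart, facing away from each other, and the summit had a −log10 IDR of 1.75, with 38.5 in replicate 1 and 26.0 in replicate 2.

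Of the LSm genes, 2 of 7 (28.6%, 8.22 to 64.1%) had a main summit, against 7.15% of all genes. LSm proteins form the ring of U6 snRNA in the nucleus, for which lsm-8 is the nuclear subunit. At lsm-6 the signal was 90.3 in the main list, 68.5 in the ranked list of replicate 1 and 25.9 in that of replicate 2, at −152 bp (−log10 IDR 2.51), in a window shared with Y71G12B.13. At lsm-8 the signal was 75.2 in the main list, 73.6 in replicate 1 and 19.0 in replicate 2 (−log10 IDR 2.60). This was the most distant of the summits, at −686 bp, and lay in the 3′ UTR of the upstream gene sqd-1. Both peaks were in the list of replicate 1 and not in that of replicate 2.

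The gene lsm-7 stood at the edge of the threshold. Its candidate summit at −252 bp, between lsm-7 and dnc-1 (starts 299 bp apart), had a signal of 126, higher than that of 11 of the 13 genes with a main summit, but a −log10 IDR of 1.99. It was in the stricter list and in the list of replicate 1, with 92.6, and had a candidate of 42.2 in replicate 2. A separate main summit of 133 lay 548 bp downstream of its start, in its coding exon and beyond the window. The candidates of lsm-1 and lsm-3 had signals of 49.6 and 48.8, lsm-5 had one in replicate 2 alone, and lsm-4 had none. A main summit of 95.6 lay in a coding exon of lsm-3, 1729 bp downstream of its start and beyond the window.

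Among the genes of the branch site and the 3′ splice site, uaf-2, the small subunit of U2AF, had a main summit. Its signal was 76.0 in the main list, 65.7 in the ranked list of replicate 1 and 24.5 in that of replicate 2. At −23 bp (−log10 IDR 2.69) it was the summit nearest to a gene start, and it was shared with itsn-1, whose start is 915 bp away on the other strand. The branch point binding protein SF1, encoded by sfa-1, had a summit in the list of replicate 2 alone, with 44.1 at 71 bp downstream of the start, in its coding exon. Its candidate in the ranked list of both replicates had 61.1 (−log10 IDR 1.38), and that of replicate 1 had 14.9. The SF3B1 gene sftb-1, whose human counterpart is the target of several splicing inhibitors, had a candidate of 93.3 at −487 bp (−log10 IDR 1.18), with 68.4 in replicate 1 and 26.1 in replicate 2, in the 5′ UTR of the divergent gene R10E4.1. The candidates of sftb-2 (SF3B2), sftb-6 and uaf-1 (the large subunit of U2AF) had signals of 55.4, 44.2 and 37.6.

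The prp- genes, most of which encode core proteins of the U1, U2, U4, U5 and U6 particles and of the Prp19 complex, had 1 main summit at 13 genes (7.69%), near the 7.15% of all genes. It belonged to prp-40, which encodes a protein associated with the U1 snRNP. The signal was 80.7 in the main list and 73.3 in the ranked list of replicate 1, and the replicate 2 candidate at the same place had 7.02. The summit at −189 bp (chrIII:9521886, −log10 IDR 2.55) was shared with clu-1, whose start is 615 bp away on the other strand. Candidates with signals from 11.6 (prp-38) to 57.4 (prp-39) were found at prp-3, prp-17, prp-21, prp-31, prp-38 and prp-39. No ranked list held a candidate at prp-4, prp-18 or prp-19, and prp-8, the largest U5 protein, and prp-6 had one in replicate 2 alone, while prp-9 had one in replicate 1 alone.

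None of the 9 rnp- genes had a main summit (0%, Wilson interval up to 29.9%), against 7.15% of all genes. Candidates were found at rnp-1, rnp-4, rnp-5, rnp-6, rnp-7 and rnp-8, with signals from 21.5 at rnp-7, the U1-70K gene, to 53.8 at rnp-6, the PUF60 gene. The U1 and U2 snRNP genes rnp-2 and rnp-3 had candidates in replicate 2 alone, and rnp-9 had none. The intervals of the groups overlap widely with so few genes in each, from 57.1% (25 to 84.2%) for the Sm core and 50% (21.5 to 78.5%) for the SR genes to 7.69% (1.37 to 33.3%) for the prp- genes, against 7.15% of all genes, and no difference between the groups was tested.

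**Figure D2:**
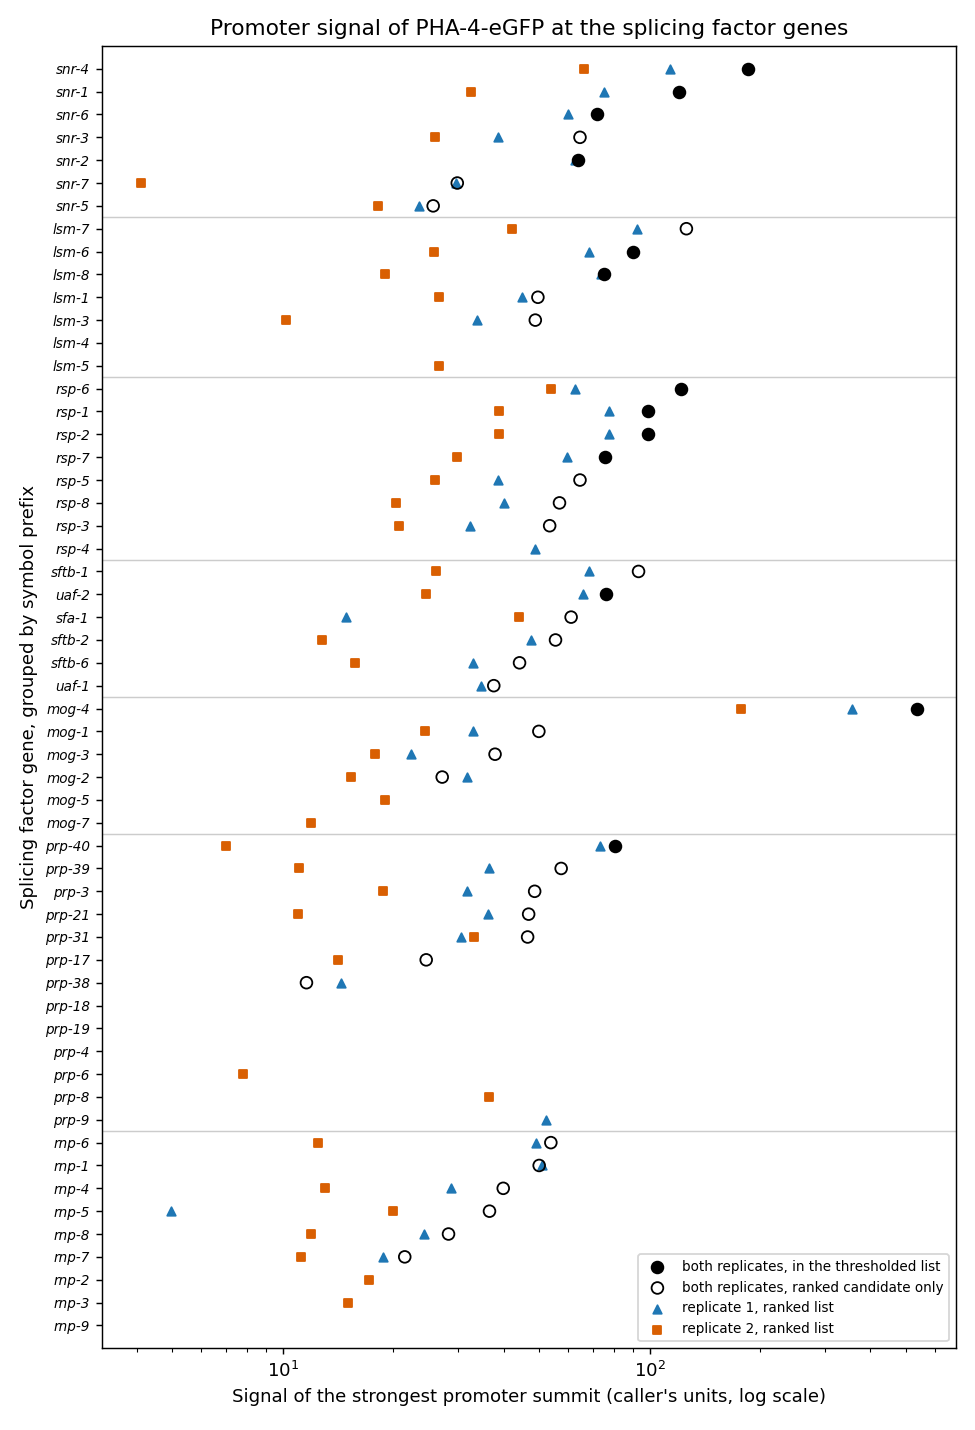
Signal of the strongest promoter summit (horizontal log axis, the caller's units) for each of the 56 splicing factor genes (rows, grouped by symbol prefix), in the ranked list of both replicates (circles, filled where the summit is in the thresholded list) and in the ranked lists of replicates 1 and 2. A missing symbol means no candidate in that list. The summit of mog-4 stands apart at 535 among those of the list of both replicates. The scale is set per list, so positions of different symbols in a row are not to be compared.

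**Figure D3:**
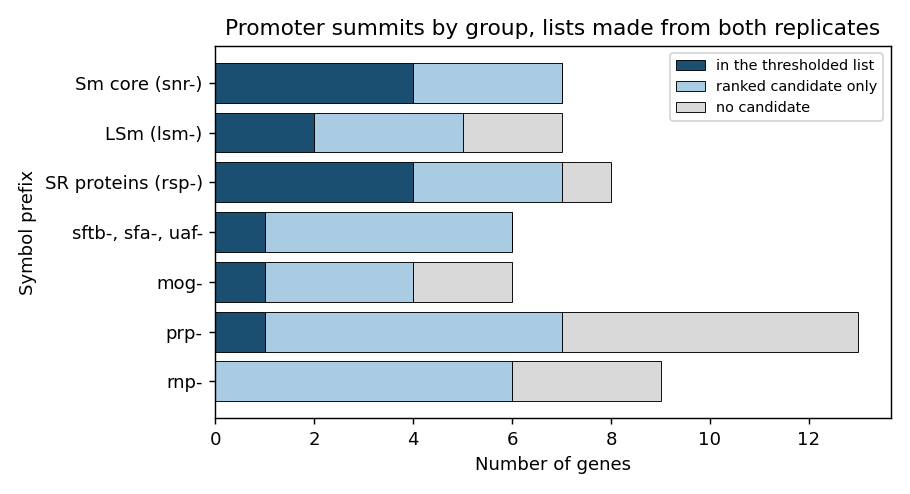
Number of splicing factor genes (horizontal axis) per group of symbols (rows) with a promoter summit in the thresholded list of both replicates, with a candidate in the ranked list alone, and with no candidate. The Sm core has 4 of 7 and the SR genes 4 of 8 in the thresholded list, against 1 of 13 prp- genes and 0 of 9 rnp- genes.

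Of the 43 splicing factor genes without a main summit, 29 had a candidate in the ranked list of both replicates, with a median signal of 48.6. The −log10 IDR lay from 1 to below 2 at 10 of them, which is 17.9% of the 56 genes, against 5.55% of all genes, and below 1 at 19. The other 14 had no candidate in that list, and 5 of these (lsm-4, prp-4, prp-18, prp-19 and rnp-9) had none in any ranked list. At the lower edge of the main list stood snr-6 with a −log10 IDR of 2.07 and snr-2 with 2.14. Just outside it stood lsm-7 with 1.99 and the summit of snr-3 and rsp-5 with 1.75.

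Few of these peaks were called in both replicate lists. Of the 13 genes with a main summit, 11 had a peak that overlapped the list of replicate 1, against 977 of the 1429 genes (68.4%). A peak that overlapped the list of replicate 2 was found at 3 of the 13 (mog-4, snr-4 and rsp-6), against 639 of the 1429 (44.7%). All 3 were in both replicate lists, against 479 of the 1429 genes (33.5%). The peaks of rsp-7 and snr-6 overlapped neither, and 6 of the 13 genes had their peak in the stricter list. With lsm-7 and sfa-1 added, 15 splicing factor genes had a summit in at least 1 of the 4 thresholded lists, and 3 had one in each of the 4. The same counts over all genes are not given here, and pooling 4 lists can only raise the count of any gene set. These counts are therefore not to be read as an excess.

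All 13 main summits lay upstream of the gene start, as did those of 1238 of the 1429 genes (86.6%). The median distance was −267 bp with quartiles of −345 and −157 bp, against −233 bp with quartiles of −439 and −94 bp over the 1429 genes. It was −293 bp (−352 and −244 bp) at ribosomal protein genes and −89.5 bp (−178 and −16 bp) at proteasome subunit genes. The band from 100 to 450 bp upstream held 11 of the 13, against 716 of the 1429 (50.1%), and the exceptions were lsm-8 and uaf-2. The band was drawn after the distances were known, so these counts are a description.

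**Figure D4:**
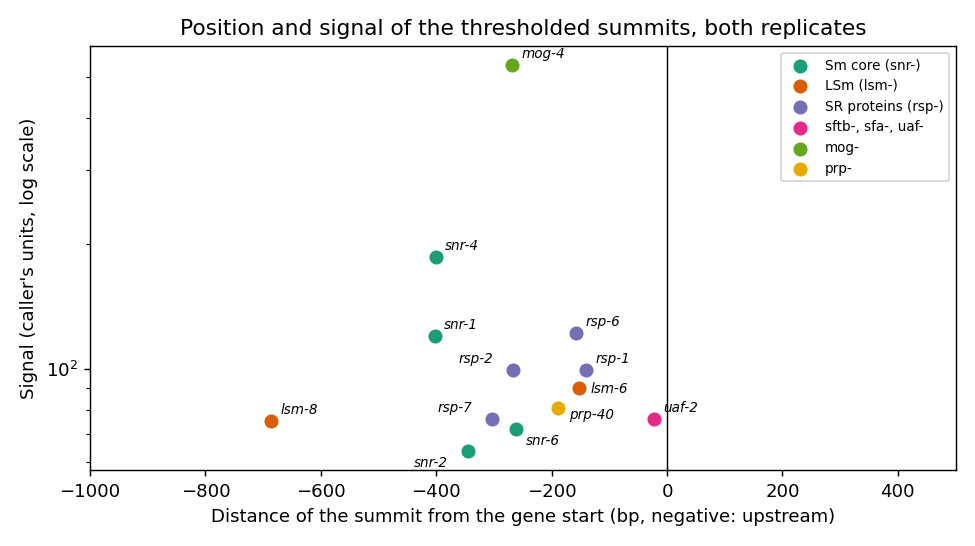
Signal (vertical log axis, the caller's units) against the distance of the summit from the gene start (horizontal axis, bp, negative upstream) for the 13 splicing factor genes with a summit in the thresholded list of both replicates, coloured by symbol prefix. Distances run from −686 bp at lsm-8 to −23 bp at uaf-2, and rsp-1 and rsp-2 are plotted at the same summit seen from each start.

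Many of the splicing factor genes share an upstream region with a neighbour. A start on the other strand, facing away, lay within 1000 bp of 30 of the 56 (53.6%), against 3539 of all genes (17.7%). Such pairs make 1 summit count for both partners, and 9 of the 13 genes with a main summit shared it with another gene's window, against 590 of the 1429 (41.3%). Among genes with such a divergent start, 8 of 30 splicing factor genes (26.7%) had a main summit, against 466 of 3539 genes (13.2%). Among genes without one, 5 of 26 (19.2%) had a main summit, against 963 of 16434 (5.86%). The share was thus above that of all genes in both classes. When each summit was given to its nearest gene start alone, 9 splicing factor genes (16.1%) kept one, against 5.65% of all genes. Those that lost it were snr-1, snr-2, rsp-7 and rsp-2. Their summits lay nearer to the starts of snx-13, W08E3.4, snu-13 and rsp-1 in turn.

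Many worm genes follow another on the same strand at short distance, as in operons. A gene on the same strand ended within 1000 bp upstream of 14 of the 56 splicing factor genes (25%), against 28.9% of all genes. Of these 14, 4 (28.6%) had a main summit, against 6.83% of such genes, and of the other 42, 9 (21.4%) had one, against 7.29%. By chromosome, the splicing factor genes with a main summit numbered 2 of 9 on I, against 9.83% of all genes there, 4 of 14 on II, against 6.58%, and 2 of 15 on III, against 10.4%. They numbered 4 of 10 on IV, against 7.28%, 1 of 7 on V, against 4.79%, and 0 of 1 on X, against 6.08%. With so few genes per chromosome these shares are only described, and that on III is near the share of all genes.

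Genes of the same pathway outside the 9 prefixes gave a share close to that of the 56. Of 76 further symbols in 3 lists, 73 matched the annotation, and 17 of these (23.3%, 15.1 to 34.2%) had a main summit, against 7.15% of all genes. The 17 include snu-13, whose summit is also that of rsp-7, so this share is not fully separate from that of the 56. In the stricter list 9 (12.3%) had one, against 4.15%, and in that of replicate 1 13 (17.8%) had one, against 5.53%. In that of replicate 2, 6 (8.22%, 3.82 to 16.8%) had one, against 3.85%, and that interval includes the share of all genes. Among proteins of the snRNPs and the activated spliceosome, 7 of 37 (18.9%, 9.48 to 34.2%) had a main summit, against 7.15% of all genes. The strongest were plrg-1, of the Prp19 complex, with 230 at −189 bp, usp-39 with 122 at −155 bp, smu-1 with 103 at −41 bp and snrp-200, the U5 helicase, with 95.5 at 42 bp downstream.

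Among SR-related proteins and splicing regulators, 7 of 26 (26.9%, 13.7 to 46.1%) had a main summit, against 7.15% of all genes. The strongest were spk-1, the SR protein kinase, with 190 at −287 bp, rsr-1 with 186 at −478 bp, hrpk-1 with 184 at 225 bp downstream and swp-1 with 128 at −874 bp. The summits of spk-1, rsr-1 and swp-1 also lay in the windows of rheb-1, sri-5 and rpl-23 in turn. Among genes of snRNP assembly, cap binding, exon junctions and lariat turnover, 3 of 10 (10.8 to 60.3%) had one, against 7.15%. These were prmt-5, the methyltransferase of Sm proteins, with 186 at 62 bp downstream, the SMN gene smn-1 with 86.6 at −148 bp, inside an annotated miRNA gene, and mag-1 with 81.6. The summit of smn-1 also lay in the window of klp-16, and the peaks of smn-1 and mag-1 overlapped neither replicate list.

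For scale, 43 of 78 ribosomal protein genes (55.1%, 44.1 to 65.7%) and 6 of 33 proteasome subunit genes (18.2%, 8.61 to 34.4%) had a main summit. The interval of the 56 splicing factor genes overlaps that of the proteasome genes and lies below that of the ribosomal protein genes. In the ranked list of both replicates, 97.4% of the ribosomal protein genes and 87.9% of the proteasome genes had a candidate. Both shares were above the 75% of the splicing factor genes, against 52.0% of all genes.

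The PHA-4 consensus lay within 50 bp of 2 of the 12 member summits (16.7%), those of lsm-6 and rsp-7, against 308 of the 1130 distinct promoter summits of all genes (27.3%). Both strands were searched. The forkhead sequences TGTTTAC and TGTTTGC, which are among the sequences the consensus covers, were found at 0 and 1 of the 12, against 1.33% and 5.58%. The GATA-factor sequence TGATAA and the repeat GAGAGAGA were found at none of the 12, against 7.88% and 3.36%. TTTCAG, the worm's 3′ splice site sequence, was found at 2 of the 12 (16.7%, 4.70 to 44.8%), against 9.20% (7.65 to 11.0%). The 2 were the summits of rsp-6 and lsm-8. Within 100 bp, 5 of the 12 (41.7%) held the consensus, against 46.7%, and 6 of the 12 (25.4 to 74.6%) held TTTCAG, against 22.5% (20.1 to 25%). At that distance TGTTTGC was found at 2 of the 12 (16.7%), against 9.03%, and TGATAA at 1 (8.33%), against 15.9%. TGTTTAC and GAGAGAGA were found at none, against 2.92% and 6.37%. Several sequences were searched at both distances, and no difference was tested, that of TTTCAG within 100 bp included. The median GC content within 100 bp was 42.5% (30.3 to 49.3%) at the 12 summits, against 43.3% at the 1130.

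The 6 bases TGCGTC were noticed in the printed windows and then counted, so their share at these summits is a description with no test. Searched on both strands, they lay within 50 bp of 7 of the 12 member summits (58.3%, 32.0 to 80.7%), against 161 of 1118 promoter summits of other genes (14.4%, 12.5 to 16.6%). Of the 6 summits whose windows are not printed, 3 (50%) held them, at lsm-6, rsp-7 and snr-6. Beside the summits the sequence was rarer. Windows 500 bp to the left and to the right held it at 1 and 0 of the 12, against 1.70% and 3.04% at the summits of other genes.

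Summits of the main list outside promoter windows held the 6 bases at 148 of 1790 (8.27%). Candidates of splicing factor genes that were not in the main list held them at 3 of 28 distinct summits (10.7%), against 263 of 8047 for other genes (3.27%). Windows placed 267 bp upstream of every start, the median distance of the member summits, held them at 4 of the 56 splicing factor genes (7.14%, 2.81 to 17%), against 538 of 19914 other windows (2.70%, 2.49 to 2.94%). These 56 windows are not separate from the summit windows, because the distance was taken from the member summits. At rsp-2 (summit at −267 bp) the window is the one printed. It overlaps the summit window at mog-4 (−268 bp), snr-6 (−261 bp), rsp-7 (−304 bp), snr-2 (−345 bp) and prp-40 (−189 bp). At promoter summits of ribosomal protein genes the count was 8 of 40 (20.0%). The share among other genes' summits was 12.2% at signals from 60 to 130 and 17.8% above 130, both below that of the 12. No factor was assigned to the sequence.

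**Figure D5:**
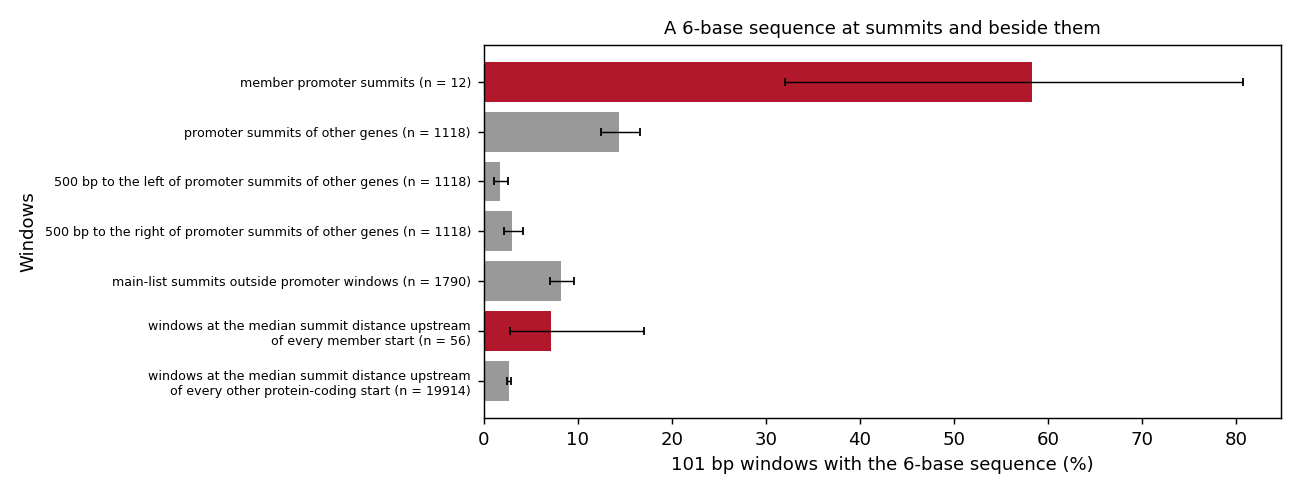
Percentage of windows of 50 bp to each side of a point that hold TGCGTC on either strand (horizontal axis) for 7 kinds of window (rows, with the number of windows), with 95% Wilson intervals as whiskers and the windows of splicing factor genes in red. The member summits stand at 58.3% of 12 windows, against 14.4% of 1118 promoter summits of other genes.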

How the data were processed

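Peak lists from ChIP-seq of 2 biological replicates were used as the authors deposited them, on ce11 per the labels. The deposited signal of each peak is the peak caller's own value, and the ranked lists deposited by the authors also give the −log10 of the IDR. Per the deposited notes, alignments after filtering and a control went into each list. Aligner, peak caller and settings are not given in the sources used here, and a second ranked list from both replicates was not used here. Depth is unknown, so precision is that of the counts of genes.

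Mitochondrial peaks (26 to 28 per list) were left out. Gene starts came from Ensembl release 115 and sequences from RefSeq, both WBcel235. The strongest summit in each promoter window was taken, and 1 summit could count for several genes. Peaks were shared between lists when they overlapped by at least 1 bp. Assignment was checked on simulated peaks. Shares carry 95% Wilson intervals over genes and stand beside the share of all genes, with no test. Python 3.11.15, pandas 2.3.3, numpy 2.4.6, scipy 1.17.1 and matplotlib 3.10.9 were used.

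The splicing factor genes, the gene lists and the alternatives were chosen with earlier results of these data known. Genes named were all 13 with a main summit, those in another thresholded list alone, those without a summit by name or count, the 3 highest ranked of these with full values, the 4 highest per pathway list, and genes sharing a summit with a member. Ranked signals of further genes without a main summit, singly or as a range, go beyond that rule and were added after their values were seen. The 6 sequences are the strongest member summits outside chromosome I. The further symbols without a match were gcfc-2, rnps-1 and tiar-3.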

Additional observations from a re-analysis of the deposited data

How the results depend on the processing

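The share of splicing factor genes with a promoter summit was above that of all genes under each of the 9 alternatives, from 7.14% against 3.85% in the list of replicate 2 to 30.4% against 9.55% with a window of 2000 bp upstream. The count fell to 7 in the stricter list and ranged from 4 to 13 when 1 replicate was left out. The median signal was 122 in the stricter list, 60.2 to 73.6 with 1 replicate left out and 80.7 without operon-like spacing. The median distance was −205 to −202 bp with 1 replicate left out, −264 bp with a window of 500 bp upstream, without summits near small RNA genes and with every transcript start, −304 bp with the window of 2000 bp and −189 bp with the nearest gene start. In the stricter list the counts were 2 for the Sm core, 1 for LSm, 0 for the branch site group and 0 for prp-. With 1 replicate left out they ranged from 1 to 4 for the Sm core, 1 to 3 for SR, 0 to 3 for LSm and 0 to 1 for prp-. The narrow window gave 1 LSm gene, and the wide window gave 2 branch site genes and 1 rnp- gene. The nearest gene start gave 2 SR and 2 Sm genes. Without operon-like spacing there were 0 LSm genes, and 1 gene was in both replicate lists. The causes were not tested. No paired analysis was possible because there is 1 group. Depth is unknown, so no limit of detection can be given for genes without a summit.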
